A study of Mus musculus with 8 samples.

Results

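The SLAM family is a set of immunoglobulin-like receptors on the surface of blood-derived cells, and it was examined here in macrophages of mouse pancreas tumours that had been sorted by their amount of MHC class II. Its 9 members in this account are Slamf1, Slamf6, Slamf7, Slamf8, Slamf9, Ly9, Cd48, Cd84 and Cd244. Their probes were taken by gene name, but the members were chosen with earlier results of these data known. The arrays carried 17 probes named for them, of 56605 probes other than controls. Of the 9 genes, 8 were tested, among 28000 genes tested in all.

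Per the labels, each of the 8 arrays held RNA of macrophages from a pancreas tumour that had been implanted in a female FvBn mouse aged 8 to 10 weeks, and cells were collected by flow cytometry straight into lysis buffer. There were 4 MHCII-high and 4 MHCII-low samples, each group with the label numbers 20435, 20436, 20439 and 20442. The genotype is labelled as not provided. The series' design text speaks of normal pancreas and of PDAC, pancreatic ductal adenocarcinoma. It names FLT3-CRE/LSL-YFP, KPC and wild-type mice, without saying which of them gave the 8 samples. Gates other than MHCII are not given in the sources used here. Since no label ties the samples to separate mice, the p-values reflect only how much these samples varied, and that variation may be technical.

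Most SLAM family receptors bind a copy of themselves on a neighbouring cell, while Cd244 binds Cd48. Several carry tyrosine switch motifs in their tails, short stretches that are phosphorylated and then bind the SH2 adaptors SAP (Sh2d1a), EAT-2 (Sh2d1b1) or, in mouse, ERT (Sh2d1b2), and that bind the phosphatases SHP-1 (Ptpn6), SHP-2 (Ptpn11) and SHIP-1 (Inpp5d) when the adaptors are scarce. Slamf8 and Slamf9 have short tails without that motif, and Cd48 is held in the membrane by a lipid anchor. In mouse macrophages the family is known for roles in phagocytosis and in control of the NADPH oxidase.

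The probes that the results turn on are shown first by part of their sequence, 30 bases each, with mm9 coordinates from the scanner files. All are on chromosome 1. Whether a probe lies in an exon of coding sequence or in a UTR was not determined here. The probes of Slamf7 (chr1:173569299-173569358, minus strand) and Slamf8 (chr1:174512067-174512126, minus strand) carry the highest values for MHCII-high over MHCII-low in the family, and that of Cd84 (chr1:173816502-173818732, plus strand) bridges a gap in the genome, since its 60 bases span 2231. Cd244 is represented by 2 stretches that bear on how its signal can be read. In the stretch of its brightest probe (chr1:173515388-173515447, plus strand), capitals mark the bases in which runs of 18 or more also occur in probes of 8 other genes. In the stretch of its second probe (chr1:173507474-173508000, plus strand), capitals mark codons that fit the pattern of a tyrosine switch motif, threonine, any residue, tyrosine, any pair of residues, then valine or isoleucine.
Slamf7 probe: aacaagaatggcacctgcgtaatcaatctg
Slamf8 probe: ggggtctgagttccttgtgttcaagatgtt
Cd84 brightest probe: ccaacatgaaggacagaagtctgcctaagg
Cd244 brightest probe: TGCACAGAGAAACCCTGTCTCAAtccctaa
Cd244 second probe: cctttgACAATATATGAATATGTCaaggac
The switch motif codons were found in 1 of the 17 SLAM family probes and in 427 of all 56605 probes (0.754%), read in any frame. The second Cd244 probe therefore reads a stretch of message that fits the code for this motif, while its brightest probe reads a stretch that is partly shared with other genes.

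The 150 bases upstream of the annotated start are shown for the 4 members that passed the test below, from RefSeq's GRCm38.p6 annotation, because these members moved in opposite directions. RefSeq promoters were found for 8 of the 9 members, with Cd244 listed as Cd244a. Capitals mark matches to motifs that were searched on both strands in the 250 bases upstream, namely GAGGAAG (ETS core), TTGCNNAA (C/EBP), TGANTCA (AP-1), GGAANTGAA (ETS-IRF) and TGTGGT (RUNX).
Slamf7, chr1:171649000-171649149, minus strand: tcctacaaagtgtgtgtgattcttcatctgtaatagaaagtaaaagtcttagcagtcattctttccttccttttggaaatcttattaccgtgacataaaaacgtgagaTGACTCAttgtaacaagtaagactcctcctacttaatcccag
Slamf8, chr1:172590569-172590718, minus strand: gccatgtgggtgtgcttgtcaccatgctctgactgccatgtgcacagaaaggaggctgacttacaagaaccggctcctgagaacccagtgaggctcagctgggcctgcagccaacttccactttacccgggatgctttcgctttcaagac
Cd84, chr1:171839547-171839696, plus strand: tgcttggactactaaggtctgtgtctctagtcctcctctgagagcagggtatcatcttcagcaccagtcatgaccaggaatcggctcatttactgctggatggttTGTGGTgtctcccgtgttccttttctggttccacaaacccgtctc
Cd244, chr1:171559043-171559192, plus strand: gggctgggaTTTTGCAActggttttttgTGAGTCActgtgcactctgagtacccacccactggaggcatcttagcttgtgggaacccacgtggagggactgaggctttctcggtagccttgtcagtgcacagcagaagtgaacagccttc
The AP-1 letters were present in 3 members, Slamf7 (bases -42 to -36), Cd244 (-122 to -116) and Cd84 (-229 to -223, upstream of the bases shown), and in 6.75% of 32851 promoters. The C/EBP letters were found in Cd244 alone (9.56% of promoters) and the RUNX letters in Cd48 and Cd84 (14% of promoters). The ETS core letters were found in Slamf9 alone (10.6% of promoters), and the ETS-IRF letters in 0 of the 8 (1.94% of promoters). None of these letters was found in the window of Slamf8. Members that were higher and members that were lower in MHCII-high cells both included promoters with the AP-1 letters.

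Levels are given as log2 signal relative to the 75th percentile of the same array, so that 0 is that percentile and a difference of 1 is a doubling. A difference is MHCII-high minus MHCII-low for the brightest probe of a gene, tested with limma and Benjamini-Hochberg adjustment over all 28000 genes, and it was called where the adjusted p was under 0.05. On each array 38756 to 42120 probes were well above background, and no spot was saturated. Of the 8 members tested, Slamf7 and Slamf8 were called higher and Cd84 and Cd244 lower in MHCII-high cells. Over all genes tested 4.92% were called, 2.67% higher and 2.25% lower. In 5 of the 8 the groups did not overlap, against 14.4% of all genes. The median difference of the 8 members was 0.04, and that of all genes was 0.0021. The arrays lay in 2 rows of 1 slide, with 1 MHCII-high and 3 MHCII-low arrays in row 1 and 3 MHCII-high and 1 MHCII-low in row 2. For that reason the difference of each tested member is also given within each row and with the row as a block. With the row as a block 2 members, Slamf7 and Slamf8, were called, and 455 of all 28000 genes. With the label number as a block (the replicate block) the same 2 members were called, and 802 of all 28000 genes. Each within-row difference rests on 1 array of a group, MHCII-high 20436 in row 1 and MHCII-low 20442 in row 2.

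**Figure D1:**
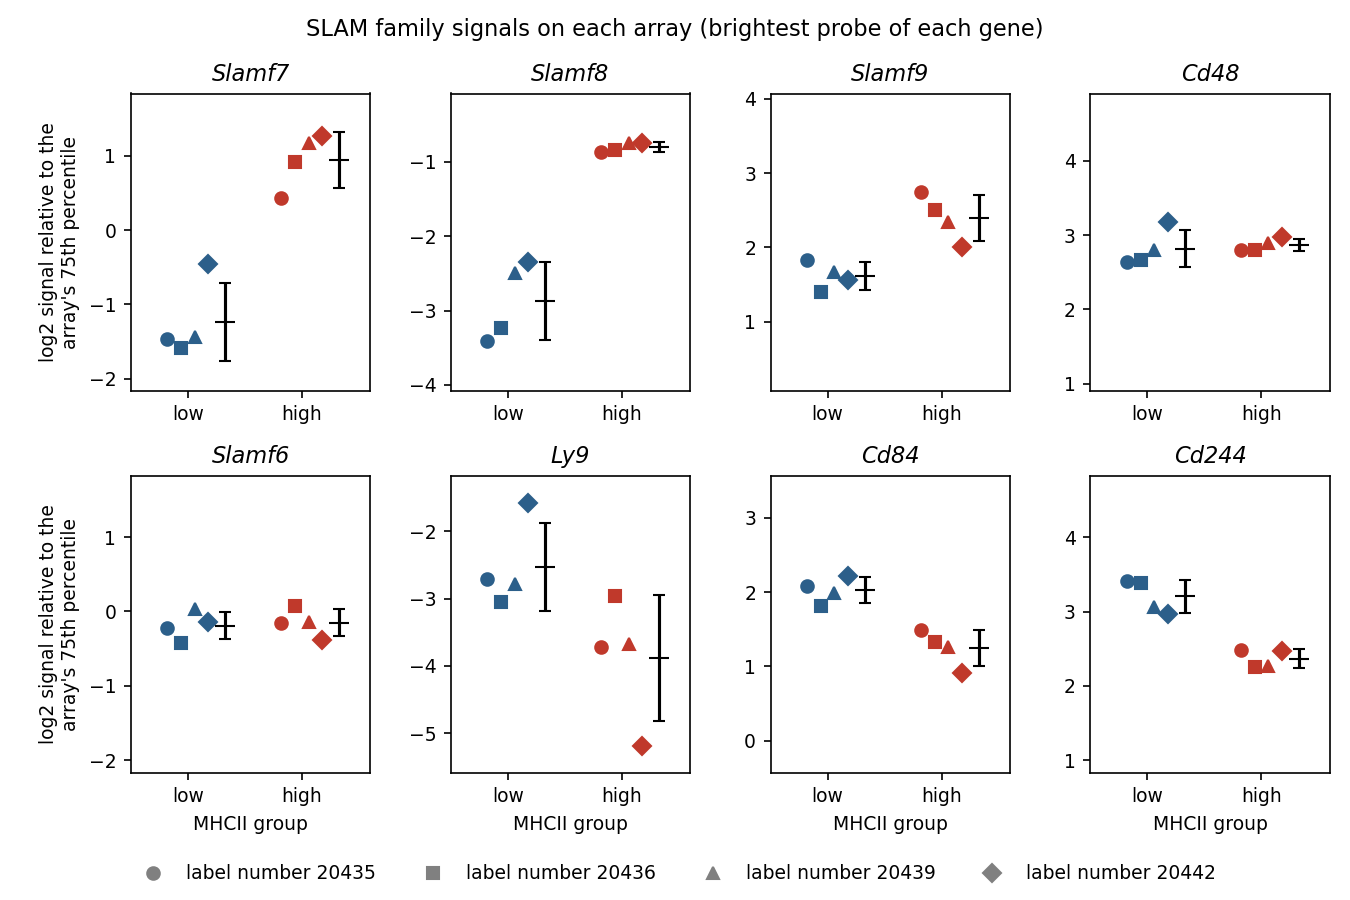
Log2 signal of the brightest probe of each tested SLAM family gene on each of the 8 arrays, relative to the array's 75th percentile; symbols give the label number, and the bar beside each group is its mean ± SD (n = 4). The MHCII-high arrays lie above all MHCII-low arrays for Slamf7, Slamf8 and Slamf9 and below them for Cd84 and Cd244.

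Slamf7 is a self-binding receptor known from natural killer cells, plasma cells, dendritic cells and macrophages, and it was 4.53-fold higher in MHCII-high cells. Its log2 signals in MHCII-high were 0.43, 0.91, 1.17 and 1.26, and in MHCII-low -1.47, -1.59, -1.44 and -0.45, in the order of label numbers 20435, 20436, 20439 and 20442. All MHCII-high arrays lay above the array's 75th percentile and all MHCII-low arrays below it, and MHCII-low 20442 was the closest to the other group. The means were 0.94 ± 0.37 and -1.24 ± 0.53 (SD, n = 4 each). The difference was 2.18 (SE 0.29, 95% interval of the fold 2.84 to 7.23) with a limma adjusted p of 0.00711. Of the 28000 genes, 329 (1.18%) had a difference above this one, counted in this direction alone. Within the slide rows the difference was 2.41 in row 1 and 1.41 in row 2, and with the row as a block it was 1.91 (limma adjusted p 0.0321). In bulk samples such as these, fewer cells of a type and less RNA per cell cannot be told apart.

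Slamf8, a family member with a short tail that restrains the NADPH oxidase in mouse macrophages, was 4.21-fold higher in MHCII-high cells. The MHCII-high arrays gave -0.86, -0.84, -0.74 and -0.75, and the MHCII-low arrays -3.41, -3.23, -2.50 and -2.35. The MHCII-high arrays lay close together, while the MHCII-low arrays fell into a lower pair (20435 and 20436) and a higher pair (20439 and 20442), all below the MHCII-high arrays. The means were -0.80 ± 0.06 and -2.87 ± 0.53 (SD, n = 4 each), a difference of 2.07 (SE 0.25, 95% interval of the fold 2.82 to 6.27, limma adjusted p 0.00483). Within rows it was 2.21 and 1.56, and with the row as a block 1.88 (limma adjusted p 0.0274). Slamf7 and Slamf8 each kept an adjusted p under 0.05 under all 18 alternatives.

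Slamf9, the other member with a short tail, had non-overlapping groups but did not pass the test. Its MHCII-high values were 2.75, 2.50, 2.35 and 2.01 and its MHCII-low values 1.84, 1.40, 1.67 and 1.56. The lowest MHCII-high array, 20442, was close to the highest MHCII-low array, 20435. The difference was 0.79, or 1.73-fold (95% interval 1.28 to 2.33), with a limma adjusted p of 0.0547. It was 0.87 and 0.81 in the slide rows, and 0.84 (limma adjusted p 0.133) with the row as a block. It was called under 4 of the 18 alternatives, among them without MHCII-high 20442, where the limma adjusted p was 0.0392. Quantile normalization (limma adjusted p 0.0367) and the deposited table (0.0371), also among the 4, used nearly the same values.

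Cd84, a self-binding receptor found on many leukocytes including macrophages, was 1.71-fold lower in MHCII-high cells by its brightest probe. That probe gave 1.49, 1.33, 1.26 and 0.92 in MHCII-high and 2.08, 1.81, 1.99 and 2.22 in MHCII-low. Every MHCII-low array was above every MHCII-high array. The means were 1.25 ± 0.24 and 2.02 ± 0.17 (SD, n = 4 each), a difference of -0.78 (SE 0.17, 95% interval 1.31 to 2.24-fold lower, limma adjusted p 0.0394). A second Cd84 probe (chr1:173820593-173820652) gave -0.87, -1.17, -1.01 and -1.58 in MHCII-high and -0.14, -0.52, -0.21 and 0.01 in MHCII-low. Its groups did not overlap either, with a difference of -0.94 and a limma adjusted p over all probes of 0.0343. The call of this second probe was lost with the row as a block (limma adjusted p 0.0852) and without any 1 array other than MHCII-high 20435 and MHCII-low 20436 (0.0638 to 0.0902). The third (chr1:173785140-173785199), which is assigned to another RefSeq transcript, gave -1.62 to -1.94 in MHCII-high and -0.97 to -1.98 in MHCII-low. Its groups overlapped, with a difference of -0.39 and an adjusted p of 0.417. The brightest probe differed by -0.63 in row 1 and -0.998 in row 2, but its call was lost with the row as a block (-0.82, limma adjusted p 0.110). With the label number as a block its call was lost too (limma adjusted p 0.115). It was also lost on leaving out any 1 array other than MHCII-high 20435, with adjusted p from 0.0519 (without MHCII-low 20436) to 0.106 (without MHCII-high 20439), and lay at 0.0752 without MHCII-high 20436, 0.0739 without MHCII-high 20442, 0.103 without MHCII-low 20435, 0.0879 without MHCII-low 20439 and 0.0946 without MHCII-low 20442.

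Cd244, the receptor for Cd48 that is best known from natural killer cells, was 1.79-fold lower in MHCII-high cells by its brightest probe. That probe gave 2.48, 2.25, 2.26 and 2.47 in MHCII-high and 3.41, 3.38, 3.06 and 2.97 in MHCII-low, again with no overlap. The means were 2.37 ± 0.13 and 3.20 ± 0.22 (SD, n = 4 each), a difference of -0.84 (SE 0.16, 95% interval 1.39 to 2.29-fold lower, limma adjusted p 0.0231). This is the probe whose first 23 bases hold runs shared with probes of 8 other genes. Of those 8 probes 7 were tested, their differences ran from -0.03 to 0.12, and 0 were called. The search covered only probes on the array, so other transcripts that hold these bases were not counted. What transcripts with the shared bases add to the signal of the Cd244 probe was not tested. With probes that share such a run set aside, Cd244 was not called (-0.88, limma adjusted p 0.0508). That setting was added after seeing the data. The second probe, the one with the switch motif codons, shared no such run and gave -0.37, -0.56, -0.72 and -0.84 in MHCII-high and 0.48, 0.62, 0.08 and -0.15 in MHCII-low. Its groups did not overlap, and its difference of -0.88 had a limma adjusted p over all probes of 0.0511. It passed under 6 of 16 alternatives (lowest adjusted p 0.0225), among them without MHCII-low 20442 (0.0441), and with the row as a block it was -0.72 (limma adjusted p 0.176). The third probe (chr1:173539819-173539877), assigned to an Ensembl transcript only, gave -0.70 to -1.67 in MHCII-high and -0.41 to -1.75 in MHCII-low and overlapped (difference -0.21, limma adjusted p 0.757). The brightest probe differed by -1.03 in row 1 and -0.57 in row 2, and its call was lost with the row as a block (-0.80, limma adjusted p 0.0953). With the label number as a block its call was lost too (limma adjusted p 0.0752). It was also lost without MHCII-high 20436 (limma adjusted p 0.0606), MHCII-high 20439 (0.0784), MHCII-low 20435 (0.0701) or MHCII-low 20436 (0.0557).

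Cd48, the lipid-anchored ligand of Cd244, gave close values in both groups. Its brightest probe (chr1:173629721-173629780) gave 2.80, 2.79, 2.89 and 2.97 in MHCII-high and 2.63, 2.66, 2.80 and 3.18 in MHCII-low. The difference was 0.05, with a 95% interval of -0.32 to 0.41 and a limma adjusted p of 0.903, and it was 0.10 in row 1, -0.29 in row 2 and -0.10 with the row as a block (limma adjusted p 0.844). A second probe (chr1:173635201-173635260) differed by 0.05 as well (limma adjusted p 0.914). The MHCII-low 20442 array was the highest of the 8 for both Cd48 probes. Cd48 thus showed no difference beyond its spread in either direction, while both brighter probes of its receptor were lower on every MHCII-high array.

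Slamf6, a self-binding receptor known mainly from lymphocytes, also overlapped between the groups. Its brightest probe (chr1:173866817-173868145) gave -0.16, 0.08, -0.14 and -0.38 in MHCII-high and -0.22, -0.42, 0.03 and -0.15 in MHCII-low, a difference of 0.04 (95% interval -0.32 to 0.41, limma adjusted p 0.919). It was 0.28 in row 1, -0.08 in row 2 and 0.10 with the row as a block (limma adjusted p 0.857). The other probes differed by -0.23 (chr1:173883204-173883263, limma adjusted p 0.593) and -0.15 (chr1:173873869-173873928, limma adjusted p 0.793). For Slamf6 and Cd48 the intervals leave out differences as large as those of Slamf7 and Slamf8.

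Ly9, a self-binding receptor known mainly from T and B cells, was dim and varied most among the tested members. Its only probe (chr1:173518744-173518790, minus strand) gave -3.71, -2.96, -3.68 and -5.19 in MHCII-high and -2.71, -3.05, -2.78 and -1.57 in MHCII-low. Of the MHCII-high arrays 3 of 4 held it well above background, of the MHCII-low arrays 4 of 4, and MHCII-high 20436 lay above MHCII-low 20436. The difference of -1.36 (SE 0.49) had a limma adjusted p of 0.171. It was -0.11 within row 1 and -2.62 within row 2, where the lowest and the highest of the 8 arrays both lie, each labelled 20442. With the row as a block it was -1.37 (limma adjusted p 0.336).

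Slamf1, which binds bacterial outer membrane proteins in mouse macrophages, was not tested. The probe that spans chr1:173718133-173722451 was well above background on 1 of the 8 arrays, MHCII-high 20435. It gave -4.95, -5.99, -7.59 and -7.36 in MHCII-high and -7.73, -7.70, -7.65 and -7.23 in MHCII-low. The other (chr1:173730343-173730402) was well above background on 0 arrays, with values from -7.78 to -7.50. No fold is given for Slamf1, since the MHCII-high mean lay below the lowest signals that counted as above background.

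**Figure D2:**
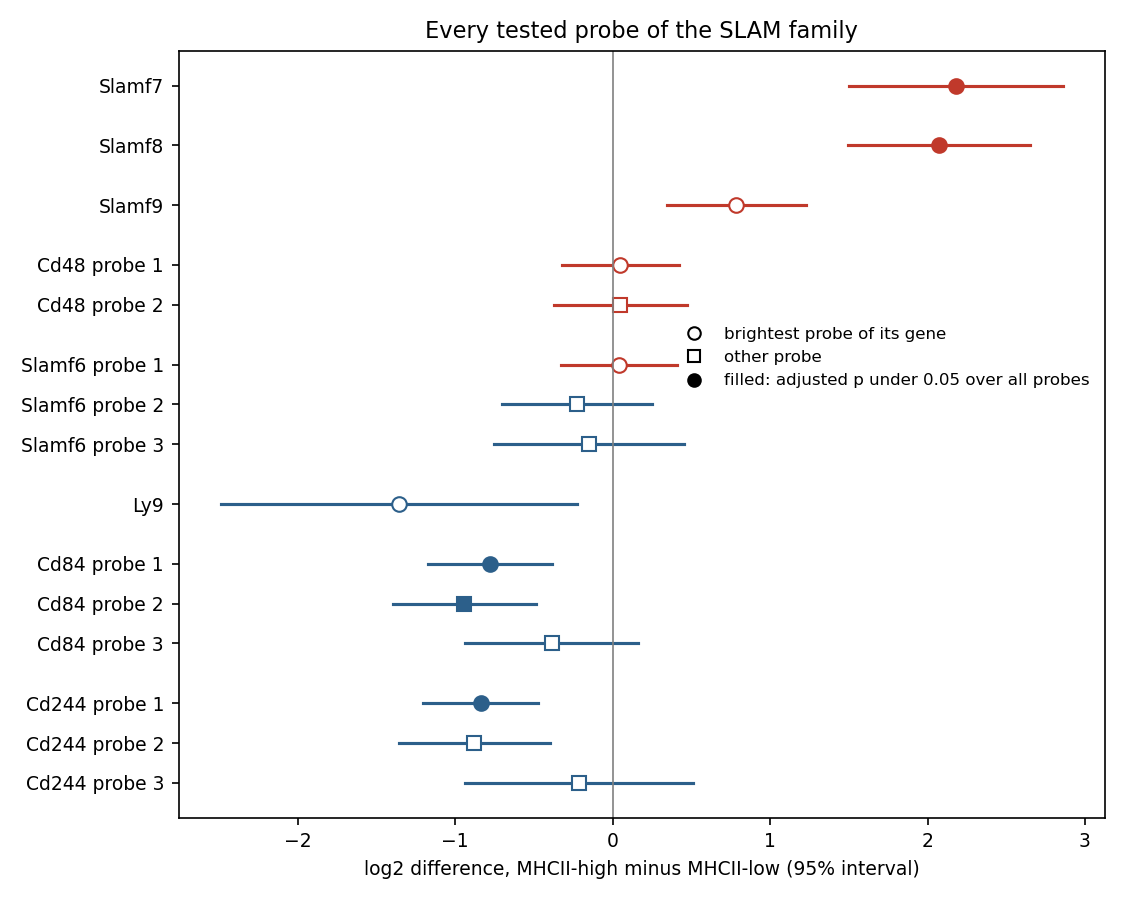
Log2 difference (MHCII-high minus MHCII-low) with its 95% interval for each of the 15 tested SLAM family probes, grouped by gene with the brightest probe first. Filled symbols passed an adjusted p of 0.05 over all probes: Slamf7 and Slamf8 to the right of 0, and the brightest Cd84 and Cd244 probes and the second Cd84 probe to the left.

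By probe, 5 of the 15 tested were called, 2 higher and 3 lower, against 5.19% of all 41184 probes tested, and in 7 of the 15 the groups did not overlap, against 14.8% of all probes. For Slamf7, Slamf8 and Slamf9 each value rests on a single probe. Of the 5 genes with more than 1 probe Slamf1 was not tested, and Cd84, Cd244, Cd48 and Slamf6 allow a check of one probe against another. The 2 brightest probes of Cd84 and of Cd244 differed in the same direction by similar amounts, and the probes assigned to other transcripts differed by less. In size, Slamf7 and Slamf8 stood well out in the spread of all genes, while Cd84 and Cd244 did not. Counted in their own direction alone, 1791 genes (6.40%) had a difference below that of Cd84 and 1578 genes (5.64%) below that of Cd244.

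**Figure D3:**
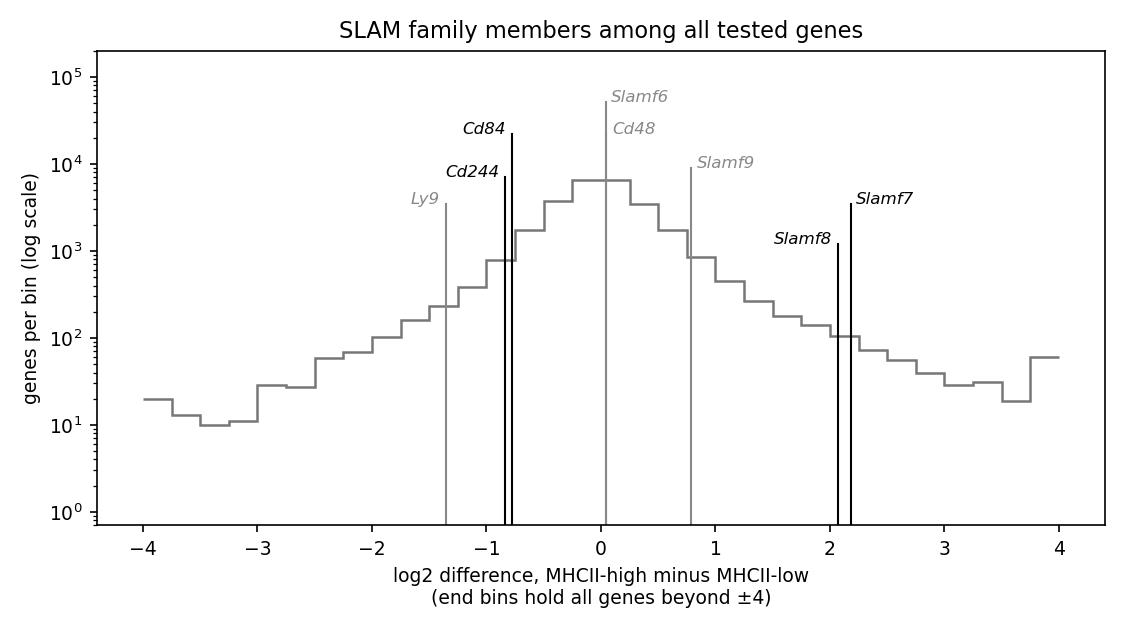
Number of genes by log2 difference (MHCII-high minus MHCII-low; grey outline, log axis, 28000 genes), with a vertical line at each tested SLAM family member, black where the adjusted p was under 0.05. The heights of the lines only make room for the names. Slamf7 (2.18) and Slamf8 (2.07) lie in the right tail, and Cd48 and Slamf6 lie near 0.

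Markers of other cells moved with the same comparison. All 10 macrophage markers tested were well above background on all 8 arrays, with a mean log2 level of 3.67 to 4.06 in MHCII-high and 4.10 to 4.53 in MHCII-low, and 1 of them, Adgre1, was called lower (-1.69). Of 12 conventional dendritic cell markers 10 were called higher, with a median difference of 2.88 and a mean level of 0.08 to 1.36 against -2.14 to -1.61. Cd24a (-0.24) and Xcr1 (2.71) were not called. The plasma cell list gave 2 of 5 higher (Jchain and Mzb1), with a mean level of -0.56 to 0.20 against -1.75 to -1.33. Tnfrsf17 (1.42), Xbp1 (0.12) and Sdc1 (0.03) were not called. The NK cell list gave 1 of 6 tested higher (Klrk1), with a mean level of -0.93 to -0.65 against -1.63 to -1.07. Klrk1 differed by 3.07 and the other 5 by -0.75 (Eomes) to 0.61 (Prf1), and Gzmb, another of its markers, was well above background on 0 arrays. For plasmacytoid dendritic cells 1 of 7 was called higher and 1 lower, for mast cells and basophils 2 of 6 tested higher, for eosinophils 1 of 3 tested lower, for epithelial cells 1 of 5 higher, and for T cells (8 tested) and neutrophils (7 tested) 0 by limma, with 1 lower and 1 higher respectively at an unadjusted p of 0.05. Slamf7 and Slamf8 were higher in MHCII-high, the group with the higher mean levels of the conventional dendritic and plasma cell lists. The NK and plasmacytoid dendritic cell lists also had higher means there, but their markers did not move together. Of the plasmacytoid markers Ly6d (1.18) was called higher and Cox6a2 (-0.83) lower. Ccr9 (1.98), Pacsin1 (0.92), Siglech (0.05), Klk1 (-0.23) and Tcf4 (-0.28) were not called, and the list's median difference was 0.05. Cd84 and Cd244 were higher in MHCII-low, the group with the higher macrophage level. The macrophage differences ran from -1.69 to 0.03, with a median of -0.38. The part of these cells in the SLAM family results was not tested.

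The genes that act with the family were examined as a list of 33 adaptors, kinases, phosphatases and partners, all of which were tested, and 0 were called by limma at an adjusted p of 0.05. At an unadjusted p of 0.05, 4 were higher and 1 lower, 5 of 33, where 19.7% of all genes passed. The median difference of the list was 0.02 against 0.0021 for all genes. Among the adaptors, SAP (Sh2d1a) gave -0.13 (limma adjusted p 0.767) and EAT-2 (Sh2d1b1) 0.44 (0.283). ERT (Sh2d1b2) gave -5.72, -6.90, -6.45 and -4.95 in MHCII-high and -4.05, -4.98, -3.57 and -4.78 in MHCII-low. Of the MHCII-high arrays 1 of 4 held it well above background, of the MHCII-low arrays 4 of 4, and its difference of -1.66 had a limma adjusted p of 0.0863. MHCII-high 20442 was above MHCII-low 20436, so the groups overlapped.

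Fyn, the Src-family kinase that SAP brings to the receptors, gave 0.36, 0.67, 0.88 and 1.04 in MHCII-high and -0.55, -0.12, 0.41 and 0.43 in MHCII-low. The groups overlapped at MHCII-high 20435, and the difference was 0.69 (limma adjusted p 0.182). The phosphatases differed by less: Inpp5d by 0.21 (limma adjusted p 0.559), Ptpn6 by 0.19 (0.664) and Ptpn11 by -0.05 (0.908). Itgam, the integrin chain that works with Slamf7 in phagocytosis of blood-derived tumour cells in mouse, had probes that disagreed. Its brightest probe gave a difference of 0.01 (limma adjusted p 0.992), while a dimmer probe gave 4.84, 4.63, 4.36 and 4.78 in MHCII-high and 5.55, 5.52, 5.23 and 5.49 in MHCII-low, a difference of -0.80 with a limma adjusted p over all probes of 0.0293. With probes that share a run of 18 bases with another gene set aside, Itgam was the 1 gene of the list that was called (-0.80, limma adjusted p 0.0282), a setting chosen after seeing the data.

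The member probes lie between chr1:173507474 and chr1:174512126 in mm9, a region of 1005 kb that also holds probes of 19 other tested genes. Of these 19, 0 were called by limma and 1, Ncstn, passed an unadjusted p of 0.05 (-0.46, adjusted p 0.185). Their median difference was -0.10, and they ran from -2.83 for Kcnj10, which was well above background on 3 of 4 arrays in each group (limma adjusted p 0.291), to 0.92 for Vsig8 (0.538). Members that differed in opposite directions lay close together: the Slamf7 probe lies between those of Ly9 and Cd48, 61.8 kb from the first Cd244 probe. Slamf9 and Slamf8 lie at the other end, 901 and 1004.6 kb from it.

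**Figure D4:**
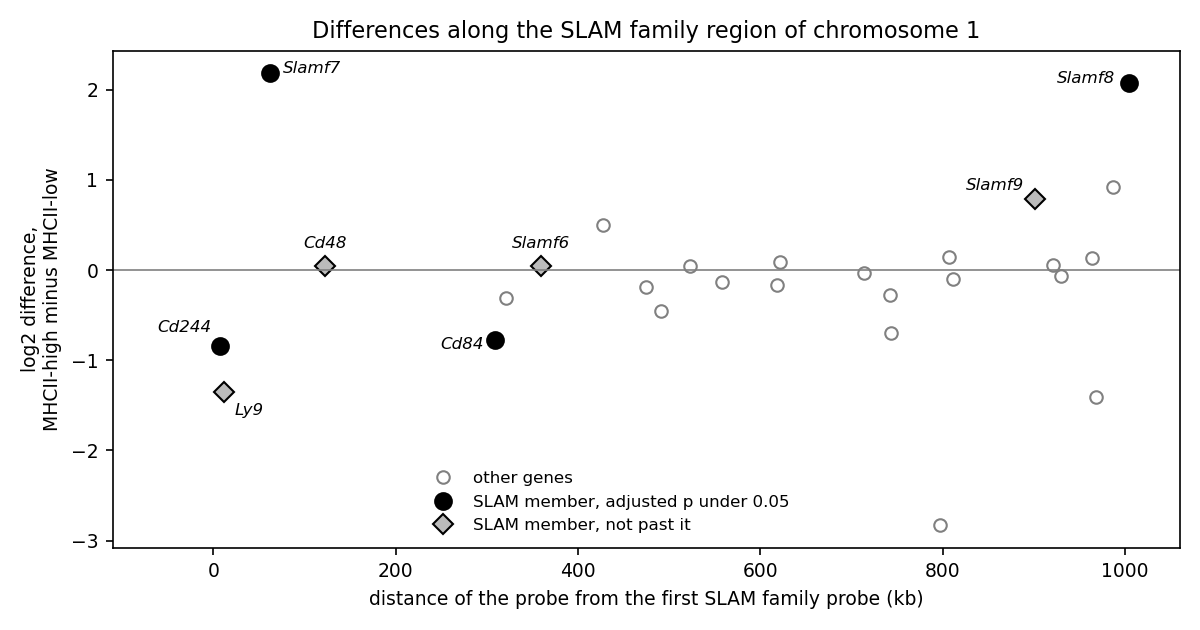
Log2 difference (MHCII-high minus MHCII-low) of the brightest probe of each tested gene in the SLAM family region of chromosome 1, against its distance in kb from the first member probe. Filled circles are members past an adjusted p of 0.05, diamonds other members, and open circles the 19 other genes, none of which passed.

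The named genes whose log2 signals ran most like those of each called member over the 8 arrays were found by Pearson's r, as a description over arrays that include the group difference. For Slamf8 they were Tlr12 (0.996), Plbd1 (0.994) and Smim3 (0.992), and for Slamf7 they were Cnn2 (0.989), Tm4sf5 (0.986) and Psmb9 (0.981). For Cd84 they were Slc25a51 (0.993), Mocs2 (0.993) and Timp2 (0.992), and for Cd244 they were Mlf1 (0.977), Gpat3 (0.977) and Sec14l5 (0.976). The 4 lists of 3 genes had no gene in common.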

How the data were processed

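Macrophage RNA of 8 samples was measured on 1-colour Agilent arrays. The deposited scanner files hold linear intensity values from Agilent Feature Extraction 11.5.1.1, background-subtracted and detrended within each array, per the file headers. The deposited series table holds log2 values, which correlated at 0.999998 or more with a quantile normalization of these signals computed here, and served as an alternative.

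Of 62976 spots per array, 3671 controls and 67 to 160 outlier spots were left out, and spots of a probe were averaged. Log2 signals were set relative to each array's 75th percentile. The 41184 probes detected well above background on 4 or more arrays were kept, and the brightest probe stood for a gene. Groups came from the sample titles and were compared with limma 3.58.1 in R 4.3.3 (lmFit, eBayes, two-sided, Benjamini-Hochberg). The number of arrays limits the precision.

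Alternatives were normexp (offset 50), quantile and median scaling, the deposited table, other filters, blocks, the mean of probes, leaving out arrays, and, added after seeing the data, probes without shared runs. Quantile scaling and the deposited table hold nearly the same values but were counted as separate alternatives. The members, gene lists and motifs were chosen with earlier results of these data known. Every probe of a member was reported. The B cell marker list is not reported here. From the signalling list, called genes and 7 adaptors, kinases and phosphatases were named, with Itgam and Ncstn added after their values were seen. The 3 most alike genes had a RefSeq symbol. Tyrosine switch motifs were sought in probe codons alone.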

Additional observations from a re-analysis of the deposited data

Results flagged for a closer look

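The log2 signal of Slamf7 in MHCII-low 20442 was -0.45, far from the other MHCII-low arrays, the nearest of which was at -1.44. The gap was 0.869 of the group's range, above Dixon's critical value at this group size. Without this array the Slamf7 difference was 2.44 (limma adjusted p 0.00439). This array was also the only MHCII-low array in slide row 2, so the Slamf7 difference within that row rests on it. It was the 1 array set apart in this way among 30 groups of values of the SLAM family probes, and chance alone sets apart about 1 in 20 groups.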

How the results depend on the processing

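Slamf7 and Slamf8 were called under all 18 alternatives, with differences of 1.91 to 2.44 and 1.45 to 2.25. Cd84 lost its call under 10 of the 18 (adjusted p up to 0.115) and Cd244 under 8 (up to 0.0953), and Slamf9 was called under 4 (0.0367 to 0.133 over all). Of the 4 members called, 2 were called with the slide row as a block, with the replicate block and with the mean of all probes, and 2 to 4 on leaving out 1 array. Of the 5 probes called, 2 were called with either block and 2 to 5 on leaving out 1 array. The count of the signalling list moved from 0 to 1 with probes that share no run, and was 0 under the others. Over all genes, the 1379 calls became 455 with the row block, 802 with the replicate block and 546 to 1157 on leaving out 1 array, where fewer samples entered; the cause of the other changes was not tested.

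Direction turned for values near 0. Slamf6 was -0.11 with the mean of all probes and -0.0364 to 0.1179 on leaving out 1 array. Cd48 was -0.10 with the row block and -0.0142 to 0.1684 on leaving out 1 array, and its second probe -0.0859 and -0.0737 to 0.1825. The dimmest Slamf6 probe was 0.0032 with normexp and -0.3592 to 0.0213 on leaving out 1 array.

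The label numbers were not taken as pairs in the main fit, and the labels do not say what they mark. Residuals of samples with the same number correlated at 0.08 to 0.21 across genes, under 0.1 for 1 of 4 numbers, although every array correlated best with its own number. With the replicate block, Slamf7 and Slamf8 kept adjusted p of 0.0167 and 0.0198, while Cd84 (0.115) and Cd244 (0.0752) did not stay under 0.05. Signal near background limits what can be said of Slamf1, Ly9 and Sh2d1b2.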
